A study of Mus musculus with 22 samples.

Results

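Chromatin accessibility was examined at 10 genes of the lysosome and of lipid-associated macrophages, out of 21938 protein-coding genes of the mouse annotation (GENCODE vM21, genome build GRCm38). The genes were taken as a list because such genes rise in obese adipose tissue. They are the lysosomal proteases Ctsd, Ctsb, Ctss and Ctsz, the lysosomal acid lipase Lipa, the lysozyme Lyz2, the lectin Lgals3, the membrane glycoprotein Gpnmb, the lipid-sensing receptor Trem2 and its adaptor Tyrobp. The locus of a gene was its annotated span with 20 kb on each side, and its promoter was the window of 2000 bp on each side of its annotated start sites.

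Lysosomes degrade proteins, lipids and carbohydrates at acid pH, and their genes are active in nearly every cell type. Macrophages that gather around dying, lipid-filled adipocytes carry a high load of lysosomal enzymes and depend on the receptor Trem2, which signals through Tyrobp. Such lipid-associated macrophages are a known feature of obese adipose tissue, whereas the nuclei measured here were those labelled as adipocytes.

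The 22 ATAC-seq libraries came from epididymal fat of individual mice of the genotype AdipoERCre x NuTRAP on a C576BL6 background, in which tamoxifen, given by gavage to every animal before the diets began, switches on a tag of the nuclear envelope in cells with adiponectin-driven Cre. Mice of 18 weeks were fed chow (C, n = 3) or high-fat diet for 12 weeks (H, n = 3), and mice of 26 weeks were chow-fed throughout (CC_s, n = 3) or had 12 weeks of high-fat diet and then 8 weeks of chow (HC, n = 3). In the longer arm, mice of 31 weeks were fed chow (CC_l, n = 2) or high-fat diet for 25 weeks (HH, n = 3), and mice of 39 weeks were chow-fed throughout (CCC, n = 2) or had 25 weeks of high-fat diet followed by 8 weeks of chow (HHC, n = 3). The study's methods describe a change to standard chow for the last weeks in CC_s and CCC as in HC and HHC, so that these 4 groups share it. Any cell in which the Cre recombined carries the tag, and the labels give the cell type as adipocytes. The background is spelled as in the labels, whereas the study's methods give it as C57BL/N.

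A library held 40528 to 60523 peaks that covered 128.1 to 299.5 Mb. The number of reads is not known, so the depth behind a value is unknown. The contrast of a library, given as its median peak height over its lowest, was 2.25 in the library HHC 3 (libraries are named by group and replicate) and 2.43 in HC 3 and lay between 3.67 and 8.92 in the other 20 libraries. H lay at 4.7 to 6.4 and C at 6.82 to 8.92, without overlap. All 14 adipocyte marker genes had a promoter peak in every library. The mean rank-mapped log2 signal of these promoters was lowest in HHC 3 (18.61) and HC 3 (19.40), against 19.70 to 20.31 in the other 20 libraries. HC 3 and HHC 3 stood apart at several of the 10 loci, and results that rest on them are given with and without them.

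The start sites of 8 of the 10 genes had a sequence of 300 bases, 250 before and 50 after the start, in the RefSeq promoter table for GRCm38.p6. The stretches below end before the start sites of the basic GENCODE annotation and show 2 promoters with a peak in all 22 libraries, Lgals3 and Lipa, and 2 that mostly lacked one, Lyz2 and Trem2. The Lgals3 stretch lies in an intron of a longer annotated transcript, whose start lies upstream. Capitals mark CpG dinucleotides.
Lgals3, chr14:47373610-47373812, strand +: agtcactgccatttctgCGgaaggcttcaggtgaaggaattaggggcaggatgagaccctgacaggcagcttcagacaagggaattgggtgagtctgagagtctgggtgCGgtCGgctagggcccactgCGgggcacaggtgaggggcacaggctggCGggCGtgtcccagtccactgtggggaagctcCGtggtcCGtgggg
Lipa, chr19:34527475-34527724, strand -: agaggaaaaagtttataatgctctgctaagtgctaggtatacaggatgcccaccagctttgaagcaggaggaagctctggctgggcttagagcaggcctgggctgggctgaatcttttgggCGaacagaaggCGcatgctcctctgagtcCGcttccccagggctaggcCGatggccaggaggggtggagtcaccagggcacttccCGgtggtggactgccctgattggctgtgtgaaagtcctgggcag
Lyz2, chr10:117282322-117282522, strand -: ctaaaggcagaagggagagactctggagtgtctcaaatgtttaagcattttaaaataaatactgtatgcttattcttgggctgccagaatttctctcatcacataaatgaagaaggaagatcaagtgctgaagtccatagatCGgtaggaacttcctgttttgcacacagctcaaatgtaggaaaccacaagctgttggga
Trem2, chr17:48346151-48346400, strand +: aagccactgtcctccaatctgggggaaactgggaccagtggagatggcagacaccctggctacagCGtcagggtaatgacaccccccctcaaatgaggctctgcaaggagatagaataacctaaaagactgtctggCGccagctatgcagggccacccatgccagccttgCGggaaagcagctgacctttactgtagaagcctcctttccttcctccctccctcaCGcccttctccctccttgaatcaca
The Lgals3 window of 300 bases held 18 CpG dinucleotides and the Lyz2 window held 1.

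The ratio of observed to expected CpG in the windows was 0.97 at Ctsd, 0.56 at Lgals3, 0.44 at Ctsz and 0.27 at Lipa, which had promoter peaks in all libraries. It was 0.59 at Gpnmb, 0.34 at Ctss, 0.22 at Trem2 and 0.068 at Lyz2, which had them in 9 libraries or fewer. Open and closed promoters overlapped in this ratio. Among all genes with such a sequence, 14.1% of the 6196 with a ratio under 0.4 and 72.5% of the 4852 with a ratio of 0.8 or more had a promoter peak in all 22 libraries. Lipa, Lyz2, Trem2 and Ctss belong to the former class, and of these Lipa alone was open throughout.

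Motifs were searched by their letters on both strands in the 300-base windows. Transcription factors of the TFEB family, which drive lysosomal genes, bind the E-box CACGTG and its extended form TCACGTGA. Among the 8 genes only the window of Ctsd held either, and it held both, against 7.15% and 0.974% of all 32851 promoter windows. The plain E-box letters also lie within the extended form. The 2 sites of Ctsd are shown in turn, with the plain E-box first and motif letters in capitals.
Ctsd, chr7:142388048-142388077, strand -: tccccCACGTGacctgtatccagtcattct
Ctsd, chr7:142387908-142387937, strand -: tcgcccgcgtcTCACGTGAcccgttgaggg
PU.1, the master factor of the macrophage lineage, binds GAGGAAGT, which was found at Ctss alone and in 1052 of the 32851 windows. It is printed as its reverse complement, 2 bases before the start, which it overlaps.
Ctss, chr3:95526773-95526802, strand +: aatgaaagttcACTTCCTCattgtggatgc
The AP-1 letters TGANTCA were found at Gpnmb and Trem2 and in 7.81% of all windows, and the C/EBP letters TTNCNCAA at Lyz2 and Trem2 and in 13.3% of them. The AP-1 sites of both genes are given because both begin within 10 bases of the RefSeq start.
Gpnmb, chr6:49036515-49036544, strand +: ccaggggcaagTGACTCAtgagcacgagtt
Trem2, chr17:48346381-48346410, strand +: ttctccctcctTGAATCAcagcgcctaccc
These matches are letters in a window and no measure of binding.

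The 10 promoters fell into 5 that were open in every library and 5 that were mostly closed. Ctsd, Ctsb, Ctsz, Lipa and Lgals3 had a promoter peak in 22 of 22 libraries. Lyz2 had one in 9, Gpnmb in 5, Trem2 in 4, Tyrobp in 3 and Ctss in 2. Across all protein-coding genes, 43.6% had a promoter peak in every library, 12.8% in 1 to 5 libraries and 22.7% in none. This is a description of levels and involves no comparison of diets.

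Height was set against the median peak of the same library, so that a value of 1 is an ordinary peak. Over the 22 libraries, the highest promoter peak of Lipa, which hydrolyses cholesteryl esters and triglycerides in the lysosome, stood at 2.71 ± 0.38 times the median (mean ± SD). That of Ctsd, the aspartic protease cathepsin D, stood at 2.60 ± 0.57 and that of Ctsb, the cysteine protease cathepsin B, at 2.23 ± 0.54. These neighbours in the order did not differ beyond their spread. At Ctsb the peak reached 2.17, 2.51 and 2.99 in C and 1.43, 1.40 and 1.53 in H, without overlap. In the long arm it reached 1.97, 2.15 and 1.47 in HH and 1.93 and 2.34 in CC_l, which overlapped. How many of all promoters separate H from C in height was not counted, and library contrast separated these groups as well. Lgals3, or galectin-3, which binds sugars exposed on damaged lysosomes, followed at 1.68 ± 0.28. Ctsz, a carboxypeptidase, came last of the open promoters at 1.31 ± 0.23.

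**Figure D1:**
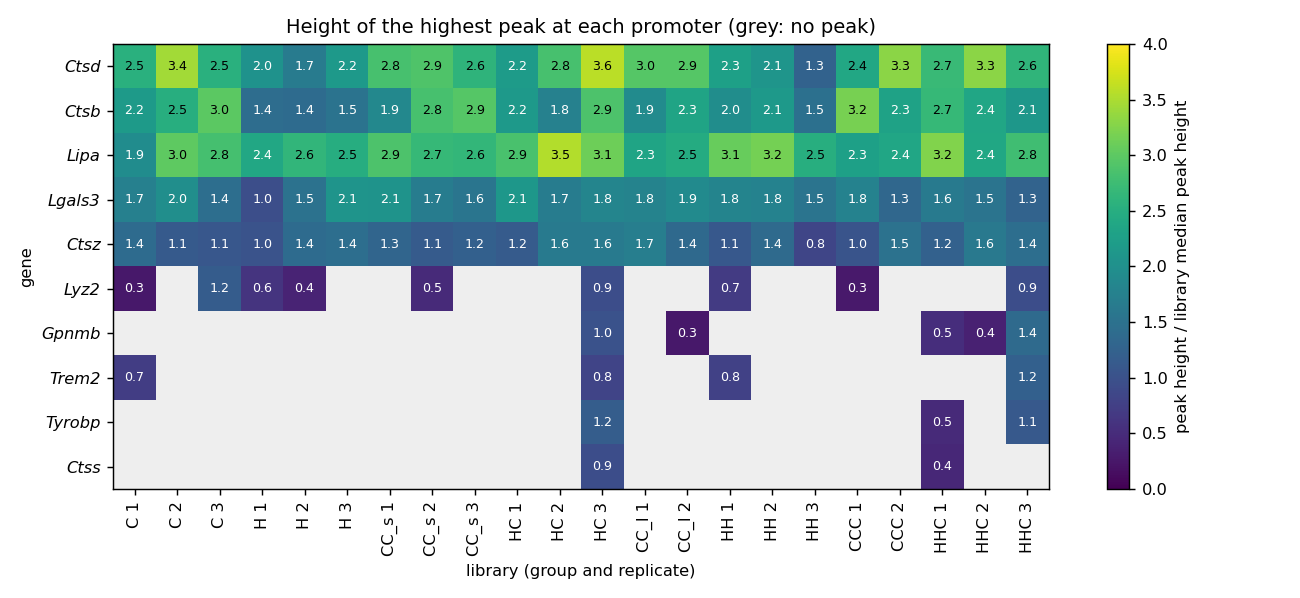
Height of the highest peak overlapping the promoter of each gene (rows) in each library (columns), divided by the median peak height of that library; grey cells have no promoter peak. The upper 5 rows are filled in all 22 libraries, and HC 3 alone is also filled in all of the lower 5.

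At the closed promoters the peaks reached 0.25 to 1.39 times the library median. Of the 23 peaks, 13 were in HC or HHC libraries, with 5 in HC 3 and 4 in HHC 3. How peaks at rarely open promoters divide between the groups over all genes was not counted. The Lyz2 peaks, at the gene for the lysozyme of macrophages and neutrophils, reached 0.25 in C 1, 1.17 in C 3, 0.61 in H 1, 0.40 in H 2, 0.48 in CC_s 2, 0.94 in HC 3, 0.70 in HH 1, 0.28 in CCC 1 and 0.94 in HHC 3. They were thus present in 2 of 3 C and 2 of 3 H libraries. The Trem2 peak, at the receptor of lipids and lipoproteins, was present in C 1 (0.72), HC 3 (0.82), HH 1 (0.77) and HHC 3 (1.22). The other 18 libraries had no peak anywhere in the Trem2 locus.

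Tyrobp, the adaptor that carries the signal of Trem2, had a promoter peak in HC 3 (1.18), HHC 1 (0.47) and HHC 3 (1.11). The promoter of Ctss, a protease of antigen-presenting cells, had one in HC 3 (0.94) and HHC 1 (0.44). Gpnmb, a glycoprotein of the lysosomal membrane, had one in HC 3 (1.00), CC_l 2 (0.26), HHC 1 (0.53), HHC 2 (0.36) and HHC 3 (1.39). Gpnmb was the only one of the 10 with a promoter peak in all 3 HHC libraries and in neither CCC library. This is a description, as the share of all promoters with that pattern was not counted.

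Counted by library, HC 3 had a peak at all 5 of these promoters, HHC 3 at 4 and HHC 1 at 3. C 1 and HH 1 had 2 each, and every other library had 0 or 1. HC 3 and HHC 3 were the 2 libraries of lowest contrast and of lowest signal at the adipocyte marker promoters. The 14 macrophage markers had 3 to 8 promoter peaks in a library, with the most, 8, in HHC 1, against 5 in HHC 3 and 6 in HC 3, HH 1 and CC_l 1. By group these counts ran from 3 to 4 in C, 4 to 5 in H, 3 to 5 in CC_s, 3 to 6 in HC, 4 to 6 in CC_l, 3 to 6 in HH, 4 to 5 in CCC and 4 to 8 in HHC, with every pair of matched groups overlapping or touching.

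Of the defining macrophage markers, Fcgr1 had a promoter peak in no library, and Ptprc, Itgam, Cd163, C1qa and C1qb in 1 each. Adgre1, which encodes F4/80, and Cx3cr1 and Mrc1 had one in 2 libraries each, and C1qc in 5. Cd68 and Mertk had one in all 22, Spi1 in 20 and Csf1r in 18. The 7 endothelial markers had a promoter peak in 7 of 7 cases in HH 1, 5 in HHC 3 and 3 in CCC 2, and in 0 to 2 in the other libraries. The part of other cell types in the peaks at the closed promoters was not tested. In such bulk libraries, more nuclei with an open site and a wider opening in each nucleus cannot be told apart.

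**Figure D2:**
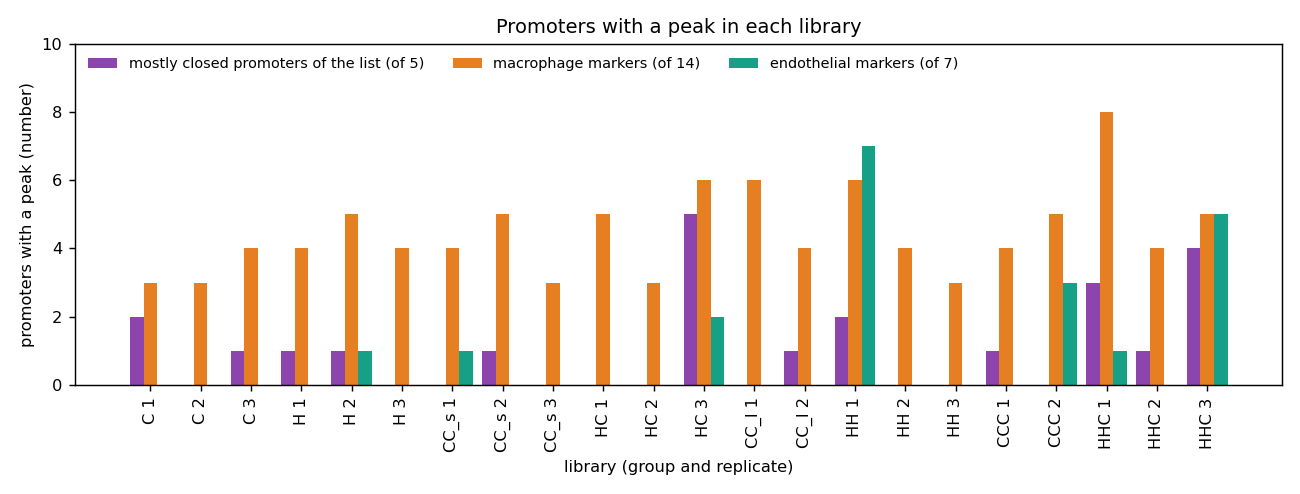
Number of promoters with a peak in each library among the 5 genes with mostly closed promoters (Lyz2, Gpnmb, Trem2, Tyrobp and Ctss), the 14 macrophage markers and the 7 endothelial markers. HC 3 has all 5 of the former, HHC 1 has the most macrophage markers (8) and HH 1 has all 7 endothelial markers.

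Whether obesity changed accessibility was asked of the total signal of all peaks that overlap a locus. Because the scale of the signal differs between libraries, each library was rank-mapped onto a common distribution and its log2 value used, and loci below the common rank limit sit at a floor of 14.06. H was compared with C and HH with CC_l in one limma fit over the 22 libraries, and the 2 differences were averaged. A single pair such as H against C was fitted on its own libraries alone. A call is a Benjamini-Hochberg adjusted p under 0.05 over all genes.

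Of the 10 loci, Lipa rose and Ctsb fell in obesity, and the other 8 were not called. All 10 entered the fit, although the Ctss locus was at the floor in every H and HH library and the Tyrobp locus in every C, H and CC_l library, so that neither is a test. The background of this comparison was 8.26% of the 18651 loci tested, with 851 higher and 689 lower. The 2 calls are read against it among the loci other than Ctss and Tyrobp, and Trem2 was near the floor in most libraries. The 6 mesothelial markers had 2 to 4 promoter peaks in C and 0 to 1 in H, and 2 in CC_l and 0 to 1 in HH, and their part in these results was not tested. At the promoters none was called, against 2.06% of 14845. Those of Ctss, Gpnmb, Trem2 and Tyrobp were at the floor in all libraries of C, H, CC_l and HH and could give no call, which leaves 6. Of these Lipa alone had an unadjusted p under 0.05, as did 14.9% of all promoters.

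**Figure D3:**
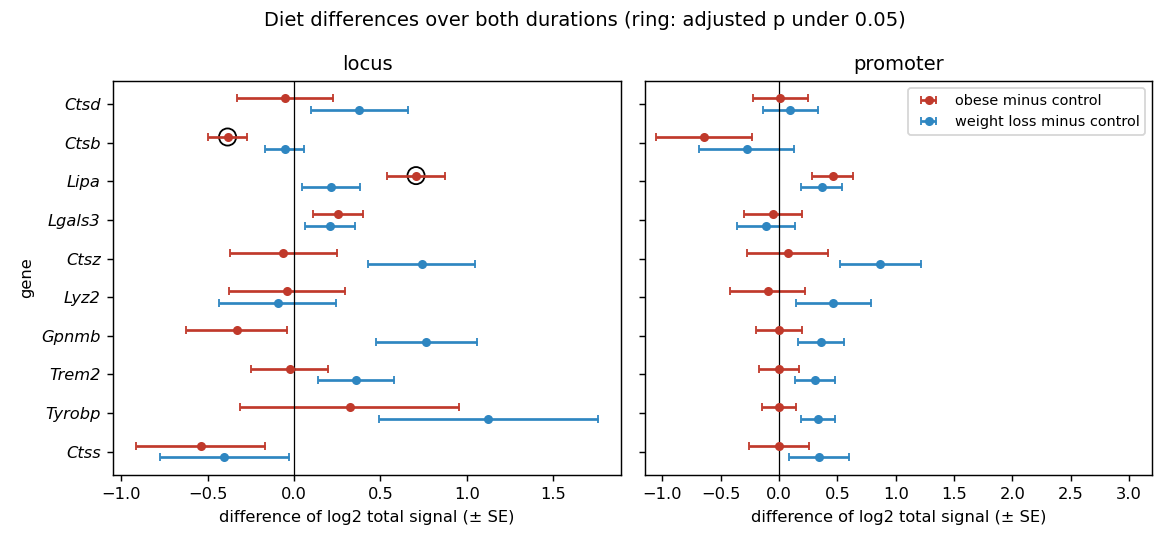
Difference of rank-mapped log2 total signal, with its SE from limma, at the locus (left) and promoter (right) of each gene, for obese minus control in red and weight loss minus control in blue, averaged over both durations. Only Lipa (0.71) and Ctsb (-0.39), both at the locus in obesity, carry the ring of an adjusted p under 0.05.

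The Lipa locus (chromosome 19, gene span 34492318 to 34527474, minus strand) had a log2 signal of 16.62, 17.03 and 17.52 in C and of 17.64, 17.58 and 17.98 in H. It had 17.45 and 17.31 in CC_l and 18.16, 18.14 and 18.04 in HH. Every obese library lay above every matched control, and the share of all loci with such a separation was not counted. An unadjusted limma p under 0.05 was found in 22.9% of all loci. The difference was 0.71 ± 0.17 on the log2 scale (SE) with an adjusted p of 0.0159 by limma. It was 0.68 ± 0.25 for H against C and 0.73 ± 0.19 for HH against CC_l, and the 2 durations did not differ detectably (0.057 ± 0.33, adjusted p = 1). The covered share of the locus was 12.7%, 18.9% and 23.7% in C and 19.7%, 19.3% and 28.3% in H. It was 18.1% and 17.5% in CC_l and 17.4%, 33.1% and 19.1% in HH, and the groups overlapped in both durations. With library contrast as a covariate the difference in signal was 0.71 (adjusted p = 0.0176). Without CC_l 1 the adjusted p was 0.0522 and without CC_l 2 it was 0.0731.

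At the Lipa promoter alone the log2 signal was 15.75, 15.81 and 16.11 in C and 16.25, 16.12 and 16.47 in H. It was 15.96 and 16.12 in CC_l and 16.55, 16.47 and 16.70 in HH. The obese libraries again lay above their controls, by 0.46 ± 0.18, which was not called (adjusted p = 0.224). How many of all promoters separate in this way was not counted either. With the maximum in place of the total signal, the promoter difference was 0.47 ± 0.11 with an adjusted p of 0.0326.

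The signal of Lipa came from several peaks along the gene. Peaks that overlap in any library were merged into 39 regions over the 10 loci, of which 11 had a peak in all 22 libraries and 8 in 1 library. The Lipa start region (chr19:34512474-34529747) spans the promoter and the first part of the gene, from 2.27 kb before to 15 kb after the start. The other regions of the locus lie downstream, at 18.5 to 27.9 kb, 29.1 to 32.4 kb and 42.7 to 45.4 kb from the start and at the promoter of Ch25h, which encodes cholesterol 25-hydroxylase.

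In the Lipa start region the log2 signal was 16.54, 16.57 and 17.02 in C and 17.56, 17.21 and 17.56 in H. It was 16.81 and 16.82 in CC_l and 17.44, 17.55 and 17.66 in HH. The difference for obesity was 0.73 ± 0.13 (limma adjusted p = 0.00184), and for H against C alone it was 0.73 ± 0.18 (adjusted p = 0.0311). The call in H against C was lost on leaving out C 1, C 2, H 1, H 2 or H 3, with adjusted p-values of 0.0601 to 0.131. It was kept without C 3.

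After weight loss the Lipa start region had 17.43, 17.44 and 17.79 in HC against 17.25, 17.10 and 17.05 in CC_s. It had 17.70, 17.18 and 17.58 in HHC against 16.99 and 16.87 in CCC. Each library with a past of high-fat diet lay above its matched controls here too, by 0.49 ± 0.13, and the adjusted p of 0.0532 missed the threshold. Such a separation in all 4 pairs, with the high-fat history above, was seen in 0.256% of the 49133 regions tested. The region was among the 3 with the smallest p in these loci and was chosen by that rule, so the separation is a description. It did not hold for the whole Lipa locus, where HHC had 18.22, 17.52 and 17.49 and CCC 17.53 and 17.66. The locus differed by 0.22 ± 0.17 after weight loss (limma adjusted p = 0.435), and its covered share by -4.39 percentage points (two-sided exact p = 0.43). For the start region, the difference between the effects with and without weight loss was -0.25 on the log2 scale (adjusted p = 0.644).

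**Figure D4:**
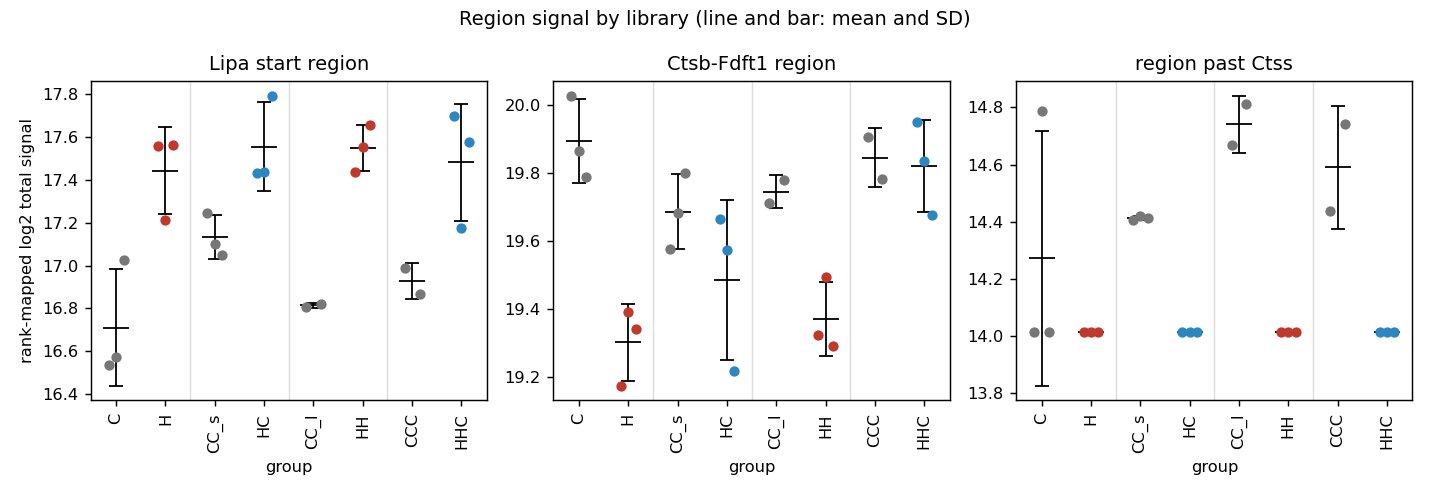
Rank-mapped log2 total signal of each library (points) with group mean and SD (line and bar) in the Lipa start region, the Ctsb-Fdft1 region and the region past Ctss; grey points are controls, red obese and blue after weight loss. In the left panel the red and blue points lie above the grey points of their pair, and in the right panel all red and blue points sit at the floor of 14.01.

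No other region of the Lipa locus was called. The region at 18.5 to 27.9 kb, with a peak in 18 libraries, differed by 0.16 ± 0.36 in obesity and by -0.58 ± 0.36 after weight loss, and neither was called. The region at 29.1 to 32.4 kb had a peak in 2 of 3 C, 3 of 3 CC_s, 1 of 2 CC_l and 2 of 2 CCC libraries, and in 0 of 3 H, 1 of 3 HC, 2 of 3 HH and 1 of 3 HHC libraries. At Ch25h there was a peak in 3 of 3 H and 3 of 3 HH libraries and in 1 of 3 C and 2 of 2 CC_l libraries.

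The fall at the Ctsb locus (chromosome 14, gene span 63122462 to 63145923, plus strand) was smaller. Its log2 signal was 20.03, 19.51 and 19.42 in C and 19.03, 19.30 and 19.19 in H, and 19.61 and 19.57 in CC_l and 19.29, 19.38 and 19.23 in HH. The obese libraries lay below their controls in both durations, a separation whose share over all loci was not counted. The difference was -0.39 ± 0.11, with a limma adjusted p of 0.0446. The call was lost without C 1, C 2, H 1, H 2, H 3, CC_s 3, HC 1, CC_l 1, CC_l 2, HH 1, HH 2, HH 3, CCC 1 or CCC 2, one at a time, with adjusted p-values of 0.0543 to 0.146. The call was also lost with library contrast as a covariate (adjusted p = 0.0518), with the replicate block (0.0976), with the 25000 strongest peaks (0.0712), with the gene span only (0.162) and with the maximum signal (-0.30, adjusted p = 0.454).

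Ctsb sat in one of the long open stretches of these nuclei. Its region (chr14:63114278-63185808) runs over 71.5 kb from 8.18 kb before the Ctsb start, through the promoter of Fdft1, which encodes squalene synthase of cholesterol synthesis, to Neil2. The 2 genes share it, and a change in one cannot be told apart from a change in the other by the total signal. The log2 signal of the region was 20.03, 19.87 and 19.79 in C and 19.18, 19.39 and 19.34 in H. It was 19.71 and 19.78 in CC_l and 19.33, 19.50 and 19.29 in HH. The difference was -0.48 ± 0.091 (limma adjusted p = 0.00335), and -0.59 ± 0.11 for H against C (adjusted p = 0.0141). Every library of H and HH lay below its controls, as in 5.81% of all regions tested.

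Leaving out C 1, C 2 or H 1 ended the H against C call of the Ctsb-Fdft1 region (adjusted p = 0.0519, 0.0746 and 0.0621). With the maximum signal the obesity difference was -0.23 and not called (adjusted p = 0.321). After weight loss the region differed by -0.11 ± 0.091 and was not called (adjusted p = 0.54). The values were 19.67, 19.58 and 19.22 in HC, 19.58, 19.68 and 19.80 in CC_s, 19.95, 19.84 and 19.68 in HHC and 19.91 and 19.78 in CCC, and the groups overlapped in both pairs. The change from the obese to the weight-loss effect was 0.37 (unadjusted p = 0.0104, adjusted p = 0.283).

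The covered length of the Ctsb locus was compared as well. Peaks covered 76.2%, 78.9% and 82.6% of the Ctsb locus in C and 63.0%, 69.8% and 64.2% in H. They covered 67.2% and 76.0% in CC_l and 42.8%, 72.3% and 58.2% in HH, where HH 2 overlapped the controls. The mean difference was -13.7 percentage points with a two-sided exact p of 0.035 when labels were permuted within each duration. That test has 200 relabellings and a smallest p of 0.005, and its adjusted p over 20522 genes was 0.246, since no gene passed the adjustment. In the same test 17.6% of all genes had a p of 0.05 or lower.

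Ctss had a covered share of 0% in all 6 obese libraries, given as a description with no test. In controls the share was 0%, 2.5% and 0% in C and 2.3% and 6.2% in CC_l. Of the 4 regions in the Ctss locus, 1 carried most of this. It lies 37.4 to 40.3 kb from the Ctss start, beyond the end of the gene and within Hormad1, a gene of meiotic chromosomes (chr3:95564147-95567075). It had a peak in C 2, CC_s 1, CC_s 2, CC_s 3, CC_l 1, CC_l 2, CCC 1 and CCC 2.

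The region past Ctss thus had a peak in 8 of the 10 libraries without high-fat diet and in 0 of the 12 libraries with it. Its log2 signal was 14.79 in C 2, with C 1 and C 3 at the floor of 14.01, and 14.40, 14.42 and 14.41 in CC_s, 14.67 and 14.81 in CC_l and 14.44 and 14.74 in CCC. The height of the peak was 0.45 to 1.19 times the library median, under 1 in 7 of the 8 libraries. A peak in 8 or more of the 10 and in none of the 12 was found in 0.208% of the 49133 regions tested. All 12 libraries with high-fat diet sit at the floor, and the region passed the filter on low values through the control libraries alone. Its presence is therefore given as a description, with no test. HC 3 and HHC 3 had no peak there, as the other 10 libraries with high-fat diet.

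**Figure D5:**
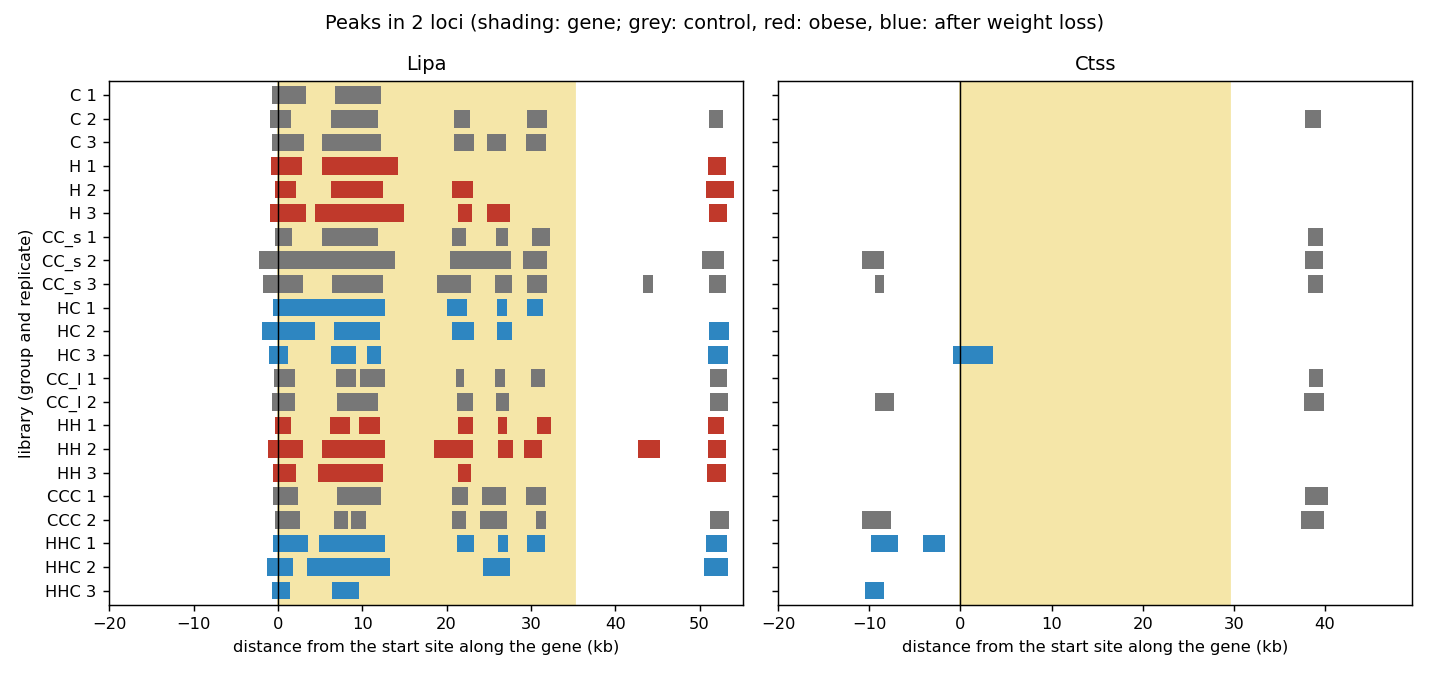
Position of the peaks of each library (rows; grey bars for controls, red for obese, blue for after weight loss) in kb from the start site along Lipa (left) and Ctss (right); the shaded span is the gene. Every row has a peak over the Lipa start, and the bars at 37.4 to 40.3 kb in the Ctss panel are all grey.

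Of the 30 regions of the 10 loci that entered the limma fit, 3 had an adjusted p under 0.05 in obesity, 1 after weight loss and, of 15 in that fit, 2 in H against C. Those in obesity were the Lipa start region, the Ctsb-Fdft1 region and the region past Ctss, the last of which was also the 1 after weight loss and is no test for the reason given above. The background without a fold limit was 9.06%, 2.25% and 16.8% of all regions. None of the regions in the loci also differed by more than 1 on the log2 scale, which 3.12%, 0.981% and 8.28% of all regions did. An unadjusted p under 0.05 was found in 4, 5 and 4 of the regions in the loci in these comparisons, and in 23.2%, 16.4% and 34.9% of all regions. These counts hold regions that entered through one side alone and are no test: the region past Ctss in obesity and after weight loss, a Tyrobp region after weight loss with peaks in HC and HHC alone, and the region upstream of Ctsb in H against C, which had no peak in H. In HC against CC_s, HH against CC_l and HHC against CCC, 0% of all regions were called with or without the fold limit. There 1 of 18, 3 of 18 and 1 of 24 regions in the loci had an unadjusted p under 0.05, against 12.0%, 13.7% and 6.14% of all. The region past Ctss, which is no test, was 1 of them in each of these pairs.

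The other members gave no call in obesity. Ctsd, with log2 signals of 17.31 to 17.72 in C and 17.15 to 17.43 in H, differed by -0.052 ± 0.28 over both durations. Ctsz differed by -0.063 ± 0.31, and Lyz2 by -0.042 ± 0.34. Lgals3 was at 0.25 ± 0.15 and Gpnmb at -0.33 ± 0.29. Tyrobp (0.32 ± 0.63), Trem2 (-0.026 ± 0.22) and Ctss (-0.54 ± 0.37) were near the floor in most libraries. A p that misses the threshold does not show that these loci were equal.

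Tyrobp did show peaks in its locus in all 3 HH libraries (14.23 to 15.11 on the log2 scale, 5.2% to 6.1% covered) and in neither CC_l library. None of these lay at its own promoter, and its locus also holds Hcst, Nfkbid and Aplp1. How many of all loci have a peak in every HH and in no CC_l library was not counted. In H and C the Tyrobp locus had no peak in any library. Among the chow-fed libraries CCC 2 had a higher signal there than any HH library (15.97, with 13.1% covered), and HC 3, HHC 1 and HHC 3 had 16.61 to 17.79.

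After weight loss no locus of the 10 was called, against a background of 2.19% of 18651. Gpnmb (0.77 ± 0.29, adjusted p = 0.159) and Ctsz (0.74 ± 0.31, adjusted p = 0.191) had an unadjusted p under 0.05 in limma, as did 21.7% of all loci. The Trem2 locus was at the floor in every CC_s and CCC library and is no test. At the promoters, also without a call against 0.148% of 14845, Ctsz (0.87 ± 0.35, adjusted p = 0.271) had one, as did 14.6% of all promoters. This value rests on HC 3 and HHC 3. Without these libraries the Ctsz promoter differed by 0.31 ± 0.22, and with contrast as a covariate by 0.34. The promoters of Ctss, Gpnmb, Trem2, Tyrobp and Lyz2 were at the floor of 14.30 in every CC_s and CCC library and are no test, which leaves 5. The Tyrobp promoter was above the floor in HC 3, HHC 1 and HHC 3 alone, and its difference of 0.34 is a description.

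The Ctsz locus had a log2 signal of 17.30, 17.25 and 18.99 in HC against 17.25, 16.81 and 16.70 in CC_s, and of 17.63, 17.17 and 18.49 in HHC against 17.11 and 17.32 in CCC. The high values were those of HC 3 and HHC 3. Without the 2, the difference was 0.27 ± 0.21. For Tyrobp it fell from 1.12 ± 0.63 at the locus to 0.16 ± 0.42, and for Ctsd from 0.38 ± 0.28 to 0.025 ± 0.22. Gpnmb kept 0.69 ± 0.33 without them, with HC 1 at 17.48 against 15.40 to 15.58 in CC_s. In HC 1 the locus held peaks at Malsu1 and Igf2bp3, and its promoter had none. The Igf2bp3 peak reaches into the edge of the locus and was counted whole, whereas the region of that peak had 17.10 in HC 1 and 16.83 to 17.53 in CC_s. With signal inside the locus alone the Gpnmb difference was 0.54, and with 50 kb on each side it was -0.18.

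The covered share of the Gpnmb locus was 7.1%, 3.5% and 5.9% in HC, 3.9%, 4.5% and 4.6% in CC_s, 6.5%, 7.7% and 5.7% in HHC and 4.5% and 3.8% in CCC. It was higher after weight loss by 1.84 percentage points (two-sided exact p = 0.04, adjusted p = 0.575), and 8.28% of all genes had a p of 0.05 or lower. Without HC 3 and HHC 3 the exact p was 0.117 for a difference of 1.97. The HHC libraries lay above both CCC libraries and HC 2 lay below all CC_s libraries. No other gene of the 10 reached an exact p of 0.05.

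The single pairs gave no called member at either level. For the loci the background was 11% of 17045 in H against C, 0% in HC against CC_s, 0.00579% in HH against CC_l and 0% in HHC against CCC. For the promoters it was 2.35%, 0.0866%, 0.0843% and 0%. By limma 2, 0, 2 and 0 of the loci had an unadjusted p under 0.05, against 31.2%, 8.99%, 12.1% and 4.04% of all loci. They were Ctsb and Lipa in H against C, and Lipa and Ctss in HH against CC_l, where Ctss is no test because all 3 HH libraries sit at the floor. In that pair the Tyrobp locus, and in HHC against CCC the Tyrobp promoter, likewise entered through the high-fat side alone. None of the promoters had one in any pair, against 21.2%, 6.08%, 7.41% and 4.25% of all promoters. Between 7 and 9 of the 10 loci and 5 or 6 of the promoters were tested in a pair, as the rest were at the floor in too many libraries.

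The interaction terms of the limma fit gave no call among the 10 genes, and few or none over the genome. The closed promoters were at the floor in 17 to 20 of the 22 libraries in this fit. For the change of the diet effect with weight loss, 0% of loci and 0% of promoters were called. For the difference between durations the shares were 0% and 0% in obesity and 0.00536% and 0.0135% after weight loss. Gpnmb at the locus (1.10 ± 0.41, limma adjusted p = 0.374 for the change with weight loss) alone had an unadjusted p under 0.05, as did 10.2% of all loci for that term. These terms do not show that the effects were equal.

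Other genes of the same functions were counted for context. Of 38 further lysosomal genes, 37 had a peak in their locus in every library and 32 at their promoter. In obesity 1 locus rose and 2 fell, 3 of 38 against the 8.26% of all loci. Ctsa, the protective protein that stabilises lysosomal sialidase and galactosidase, rose by 1.18 ± 0.20 (limma adjusted p = 0.00235), and Ctso (-0.91 ± 0.26, adjusted p = 0.038) and Ctsc (-0.77 ± 0.22, adjusted p = 0.0384), both cysteine proteases, fell. With the maximum signal the values were 0.11 (adjusted p = 0.696) for Ctsa, 0.037 for Ctso and 0.050 for Ctsc, so that none was called and Ctso and Ctsc turned direction. Both of the latter also lost their call on leaving out any one of 11 libraries (Ctso) or 10 libraries (Ctsc). The median of the 38 was -0.0089 against -0.0076 over all loci tested.

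After weight loss 1 of the 38 was called, against 2.19% of all loci. It was Ctsa, at 1.12 ± 0.20 (adjusted p = 0.0108). Its group means were 17.37 in C, 18.58 in H, 17.55 in CC_s, 18.55 in HC, 17.80 in CC_l, 18.95 in HH, 17.85 in CCC and 19.08 in HHC. With the maximum signal the weight loss difference was 0.077 (adjusted p = 0.758), and without CCC 1 or CCC 2 the adjusted p was 0.0527 and 0.0563. With the gene span only, the weight loss difference at the locus was 0.98 and not called (adjusted p = 0.0914). The Ctsa promoter rose in obesity by 1.52 ± 0.31 (adjusted p = 0.0165). That call was lost with the signal inside the window alone (0.16, adjusted p = 0.806) and with the maximum signal (0.58, adjusted p = 0.29). It was also lost without CC_l 1 or CC_l 2, at 1.48 and 1.56. The Ctsa locus also holds Pltp, the phospholipid transfer protein gene, with Neurl2, Spata25, Zswim1 and Zswim3. In H against C, Ctsa, Ctso and Ctsh (1.51 ± 0.26) were called at the locus and Ctsk (1.26 ± 0.21, from a mean of 14.67 in C, near the promoter floor of 14.30), which lies beside Ctss and encodes cathepsin K, at the promoter, against 11% of all loci and 2.35% of all promoters. Each of these H against C calls was lost without C 2, H 1 or H 2, with adjusted p-values of 0.0724 to 0.148, and Ctsh turned direction with the maximum signal. In the fit over all 22 libraries the H against C calls of Ctsh, Ctso and the Ctsk promoter were lost as well (adjusted p = 0.18, 0.0917 and 0.174). With the gene span only, Ctsh differed by 0.074 (adjusted p = 0.881), and its locus also holds Morf4l1.

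The lysosome transcription factors Tfeb, Tfe3, Tfec and Mitf had no call over both durations in limma, against 8.26% of all loci in obesity and 2.19% after weight loss. Tfec in obesity and Tfeb after weight loss had an unadjusted p under 0.05, as did 22.9% and 21.7% of all loci. The locus of Tfec, the family member of the macrophage lineage, had group means of 14.09 in C and 14.07 in CC_l, next to the floor of 14.06, and of 15.37 in H and 15.33 in HH. It passed the filter in H against C through H, so that its values in obesity are a description with no test. Of 16 further genes of lipid-associated macrophages, 15 were tested and 3 loci rose in obesity, against 8.26% called in either direction over all loci. They were Anxa2 (0.88 ± 0.12, adjusted p = 0.00043), Plin2 (0.66 ± 0.15) and Cd36 (0.59 ± 0.16). Anxa2 encodes annexin A2, Plin2 a lipid droplet coat protein and Cd36 a fatty acid transporter, and all are also expressed by adipocytes. With the maximum signal none was called (-0.040, 0.16 and 0.098 in that order), and Anxa2 turned direction. Plin2 was lost without CC_l 2 (adjusted p = 0.102), and Cd36 without C 1, C 2, H 2, H 3, CC_l 1, CC_l 2 or HH 3 (0.0507 to 0.117). Cd36 was also lost with the signal within the window only (0.43, adjusted p = 0.0668), with median centring (0.44, adjusted p = 0.0659) and with the gene span only (0.56, adjusted p = 0.0785). The median of the 15 was 0.16. After weight loss none was called by limma, and Plin2 alone had an unadjusted p under 0.05 (0.33 ± 0.15, adjusted p = 0.224).

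Of the 10 signalling partners of Trem2, none was called over both durations, against 8.26% of all loci in obesity and 2.19% after weight loss. The smallest p in obesity was that of Adam17, the sheddase that cleaves Trem2 (0.48 ± 0.19, limma adjusted p = 0.133). With library contrast as a covariate (0.60, adjusted p = 0.0342) and without HC 3 and HHC 3 (0.48, adjusted p = 0.0307) it was called. In H against C it was called as well (0.72 ± 0.14, adjusted p = 0.0253), as 1 of 8 loci tested, against 11% of all loci. That call was lost on leaving out any library but C 1 (0.0521 to 0.0889) and in the fit over all 22 libraries (0.119). After weight loss the smallest p was that of Bcl10 (0.56 ± 0.16, adjusted p = 0.0798), called without CC_s 1 (adjusted p = 0.0164).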

How the data were processed

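ATAC-seq was done on adipocyte nuclei of 22 mice in 8 groups, and replicates were separate animals. The authors trimmed reads with Trim Galore 0.6.6, aligned them with Bowtie2 2.4.4 to mm10 (GRCm38), handled them with SAMtools 1.13 and bedtools 2.30 and called peaks in each library with SEACR 1.3 in stringent mode. The deposited lists give the total and the maximum coverage signal of each peak, with no normalization stated. The tool versions are from the submitters' processing notes.

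Each library had 1 mitochondrial peak, which was left out. The number of unmatched columns was 0. Signal was summed per locus, promoter or merged region over all peaks that overlap it, and log2 values were rank-mapped over the strongest 16763 loci, 12439 promoters or 30083 regions of each library, the number that had signal in the library with the fewest, with the rest at the floor. Peaks of low rank thus also sit at the floor, so that a promoter with a peak can have a floor value. limma 3.58.1 with a mean-variance trend was fitted in R 4.3.3 over all protein-coding genes or regions. Items above the floor in fewer libraries than the smallest group were left out. The fits and the permutation test were tested on simulated data. Python 3.11.15 with numpy 2.4.6 and pandas 2.3.3 was used for the rest. Same-numbered libraries were different animals, and their deviations from group means correlated between -0.185 and 0.209, so no pairing was assumed. The members, lists and named regions (of each comparison the 3 of smallest p) were chosen with earlier results of these data known. Of the other lists, the 3 loci of smallest p in the fits over both durations and all called genes were eligible to be named. The alternatives without HC 3 and HHC 3 together, and with contrast as a covariate, were chosen after seeing the data.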

Additional observations from a re-analysis of the deposited data

How the results depend on the processing

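The count of 2 called loci in obesity became 1 with the replicate block, with contrast as a covariate, with the maximum signal, with the 25000 strongest peaks and with the gene span only, and 0 to 2 on leaving out 1 library. In each setting that gave 1 it was Lipa that kept its call, with adjusted p-values of 0.00427 to 0.0428 over the 10 settings other than leaving out a library. After weight loss the count of 0 became 1 without HC 2 (Gpnmb, 1.04, adjusted p = 0.0383), a range of 0 to 1. In H against C it was 1 with the signal within the window only, with median centring and with 50 kb on each side, in each case Ctsb (adjusted p = 0.0235, 0.0444 and 0.0235). With the maximum signal, 1 promoter in obesity (Lipa) and 1 region in H against C with a difference over 1 (upstream of Ctsb, -1.08, adjusted p = 0.0346, with all H libraries at the floor) were called, and without the fold limit also the region at Malsu1 in the Gpnmb locus (-0.58, adjusted p = 0.0376).

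For the covered share, the 2 genes in obesity (Ctsb, and Ctss, which is a description because its share was 0 in every obese library) became 1 (Ctsb) with the 25000 strongest peaks, the gene span only and 50 kb on each side, and 0 to 2 without 1 library, while the 1 gene after weight loss (Gpnmb) became 0 in these 3 settings and without HC 3 and HHC 3, and 0 to 1 without 1 library. Leaving out a library of CC_l or CCC left an arm with 1 sample, taken to vary like the other groups. With the replicate block the Ctsb locus was at -0.38 (adjusted p = 0.0976) and the Lipa locus at 0.75 (adjusted p = 0.0152). The block also ended the calls of Ctsc in obesity (adjusted p = 0.0736) and, in H against C, of Ctsh (0.0596), Ctso (0.0744), Ctsa (0.058), Anxa2 (0.0578, and 0.121 at the promoter), Adam17 (0.0637), the Ctsk promoter (0.137) and Tfec (0.0657). The numbers do not pair the animals. Without a filter on low values, the H against C calls of the Ctsb-Fdft1 region (adjusted p = 0.133) and the Lipa start region (0.307) were lost, and with the maximum signal as well (0.0801 and 0.101). The Lipa start region was called after weight loss without C 3, CC_s 1 or HHC 2 (adjusted p = 0.0398, 0.0415 and 0.0253). The cause was not tested. The counts of 0 for the changes with weight loss and duration were the same in every setting run. Of the values of the 10 genes under the alternatives, 21 lost a call, 5 gained one and 188 without a call changed sign, values near 0 included. Of those of the named regions, 30 lost a call and 7 gained one, the region past Ctss included. Among the genes of the other lists 125 lost a call and 15 gained one, and called values turned to 0.037 (Ctso), 0.050 (Ctsc) and -0.040 (Anxa2) in obesity and to -0.14 (Ctsh) and -0.14 (Anxa2) in H against C with the maximum signal, and to -0.13 (Anxa2 promoter, H against C) with the signal within the window only.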

Other observations

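Likeness of pattern was read as Pearson's r of promoter log2 signal with every gene over 1 Mb away, across 22 libraries that share depth and contrast, as a description. The Lipa promoter was most like that of Mrc2 (r = 0.77, and 0.82 without HC 3 and HHC 3), Ctsd like Kctd11 (0.85, and 0.74 without them), Ctsb like Prr7 (0.84 and 0.83) and Lgals3 like Tmem254c (0.74 and 0.68). The Ctsz promoter, highest in HC 3 and HHC 3, was most like Pou2f2 (0.91, and 0.62 without them) and Hcst (0.91 and 0.605). Ctss, Gpnmb, Trem2 and Tyrobp were above the floor in 2 or 3 libraries and Lyz2 in 5, and their likeness rests on those libraries and is not given.

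The Lyz2 locus stood out in C 3, where peaks covered 53.5% of it, against 3.02% to 31.2% in the other 21 libraries. A region upstream of Lyz2, 11.4 to 27.4 kb before its start at the promoter of the neighbouring lysozyme gene Lyz1, had a peak in all 22 libraries, whereas the region over the Lyz2 start had one in 13.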
